A study of Mus musculus with 6 samples.

Results

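Transcripts of 8 tumour necrosis factor (TNF) receptor superfamily genes were followed in serrated polyps of the mouse cecum and in the tissue around them. All 8 genes had a row among the 37991 gene identifiers of the count tables, and 7 of them had enough counts to enter the comparison of all genes. They are the decoy receptors Tnfrsf11b, Tnfrsf22 and Tnfrsf23, the death domain receptors Tnfrsf1a, Tnfrsf10b and Tnfrsf21, and the receptors Tnfrsf1b and Tnfrsf12a, which bind TRAF adaptors without a death domain. These genes were chosen by name with the difference between polyps and surrounding tissue, the measured fold changes of this same comparison, already known. Their levels and fold changes in that comparison, and whether they passed its threshold, are therefore given as a description and not as a test.

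The samples were 3 serrated polyps and 3 pieces of normal surrounding distal cecum, 1 of each from HBUS mice 1119, 1192 and 1199, taken after 60 weeks. Both tissues of every animal carry the HBUS background, in which intestinal epithelial transgenes encode the growth factor HB-EGF and a viral chemokine receptor, and polyps form in the cecum. The groups therefore differ by lesion and not by genotype, and no mouse without the transgenes was analysed here. RNA was sequenced from whole tissue, so fewer cells of a type and less RNA per cell cannot be told apart in any value below.

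Receptors of this superfamily sit on the cell surface and are bound by trimeric ligands such as TNF, TRAIL (Tnfsf10), RANKL (Tnfsf11) and TWEAK (Tnfsf12). Death domain receptors recruit adaptors that can activate caspases or NF-kappaB, and TRAF-binding receptors signal chiefly to NF-kappaB and MAP kinases. Decoy receptors bind a ligand and pass no death signal, because they are secreted or lack a death domain. In the gut these receptors are known for roles in epithelial turnover, inflammation and wound repair.

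Total counts per library ran from 6632645 to 13350119, of which mitochondrial rRNA took 46.3% to 75.3%, leaving 1852065 to 5096066 counts for all other genes. The fewest genes with counts, 12867, were found in the polyp of mouse 1192, against 15045 to 17301 in the other libraries. The edgeR quasi-likelihood fit, blocked on mouse, put 189 of 10960 genes higher (1.72%) and 114 lower (1.04%) in polyps at an adjusted p under 0.05 (Benjamini-Hochberg), 2.76% in all. Levels are in CPM, each count taken relative to the TMM-adjusted total of its library, and fold changes are polyp over surrounding tissue with their standard error (n = 3 pairs). The epithelial markers Epcam, Cdh1, Krt8, Krt18, Krt19 and Vil1 summed to 4863 to 6463 CPM in polyps and 2762 to 4819 CPM in surrounding tissue, so both tissues carried gut epithelium.

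Upstream sequences were available for 5 of the 8 genes, and those of the 2 among them with the largest polyp differences, Tnfrsf23 and Tnfrsf12a, are shown for reference. Each is the 250 bases before the annotated start, from RefSeq on GRCm38.p6, written 5′ to 3′ on the strand of the gene. The Tnfrsf23 stretch is chr7:143685876-143686125 and the Tnfrsf12a stretch chr17:23677450-23677699, both on the minus strand. Capitals mark GC boxes, GGGCGG on either strand.
Tnfrsf23: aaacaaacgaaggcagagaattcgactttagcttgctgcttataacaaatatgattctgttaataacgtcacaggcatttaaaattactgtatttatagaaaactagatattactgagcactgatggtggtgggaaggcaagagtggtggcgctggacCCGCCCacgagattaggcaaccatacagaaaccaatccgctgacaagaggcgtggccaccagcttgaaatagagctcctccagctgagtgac
Tnfrsf12a: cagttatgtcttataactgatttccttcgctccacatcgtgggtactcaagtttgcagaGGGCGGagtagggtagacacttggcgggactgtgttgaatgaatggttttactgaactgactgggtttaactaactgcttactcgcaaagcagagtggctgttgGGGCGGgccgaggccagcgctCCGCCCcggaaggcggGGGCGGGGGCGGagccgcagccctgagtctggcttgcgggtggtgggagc

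The Tnfrsf12a stretch held 5 GC boxes and the Tnfrsf23 stretch 1, 92 bases before the start. Of 32851 promoter stretches of the same length, 32.7% held at least 1. Searched on both strands, the AP-1 letters TGANTCA (in 6.75% of all stretches), the TEAD letters GGAATG (12.6%) and the NF-kappaB letters GGGANTT (14.4%) had no match in either. Among the other available stretches, those of Tnfrsf1a, Tnfrsf21 and Tnfrsf1b, the TEAD letters matched in Tnfrsf1b, 183 and 62 bases before the start, and the 62-base match lies between and shares bases with 2 GC boxes. These are matches of letters in a window and not measured binding sites.

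Among the decoys, Tnfrsf11b and Tnfrsf23 were several-fold more abundant in the polyp than in the surrounding cecum of each mouse, while Tnfrsf22 was close to absent in both tissues. Among the signalling receptors, Tnfrsf12a was higher in polyps and Tnfrsf10b less so, whereas Tnfrsf1a, Tnfrsf1b and Tnfrsf21 had overlapping values in the tissues.

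Tnfrsf11b (ENSMUSG00000063727) encodes osteoprotegerin, a secreted decoy that binds RANKL and TRAIL. It was measured at 25.5, 15.4 and 9.24 CPM in the polyps of mice 1119, 1192 and 1199, against 3.69, 0.641 and 2.48 CPM in their surrounding tissue. Every polyp lay above every surrounding sample, and the order of the mice was not the same in the tissues. The fold change was 8.38 (log2 3.07 ± 0.50), and the log2 difference within the mouse was 2.72, 4.19 and 1.81 for mice 1119, 1192 and 1199. The lowest of these samples, the surrounding tissue of mouse 1192, rested on 9 counts, and that of mouse 1199 on 11.

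Tnfrsf23 (ENSMUSG00000037613) encodes a membrane-bound mouse decoy for TRAIL. Polyps of mice 1119, 1192 and 1199 had 124, 34.5 and 102 CPM, against 17.3, 2.49 and 33.1 CPM in the surrounding tissue. Mouse 1192 was lowest in both tissues, and its polyp was only slightly above the surrounding sample of mouse 1199, so the groups were separate but close. The fold change was 6.40 (log2 2.68 ± 0.38), with within-mouse log2 differences of 2.83, 3.68 and 1.61. Surrounding tissue varied most for this gene, the highest sample being 13.3 times the lowest, against 3.60 times among polyps. In the annotation an antisense gene overlaps exons of Tnfrsf23, and since strand use is not given, its reads could not be told apart here.

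Tnfrsf22 (ENSMUSG00000010751), a mouse decoy for TRAIL next to Tnfrsf23 on chromosome 7, had 6, 0 and 3 counts in polyps of mice 1119, 1192 and 1199, against 0 counts in all 3 surrounding samples. A count of 0 allows up to 3 counts, which is 0.214 to 0.676 CPM across the libraries, so the polyp of mouse 1119, at 0.725 CPM, alone stood above its own limit of 0.363 CPM. It was not tested, and no fold change is given. These limits cover counting error only. The longest annotated transcripts of Tnfrsf23 and Tnfrsf22 aligned over 3269 bases with 92.9% identity. Of the 3993 distinct stretches of 50 bases in Tnfrsf23 transcripts, 18.0% also occurred in Tnfrsf22 and 0 in the neighbouring family gene Tnfrsf26. Reads from the shared stretches could have been dropped or given to either gene, so the split between Tnfrsf23 and Tnfrsf22 is uncertain.

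**Figure D1:**
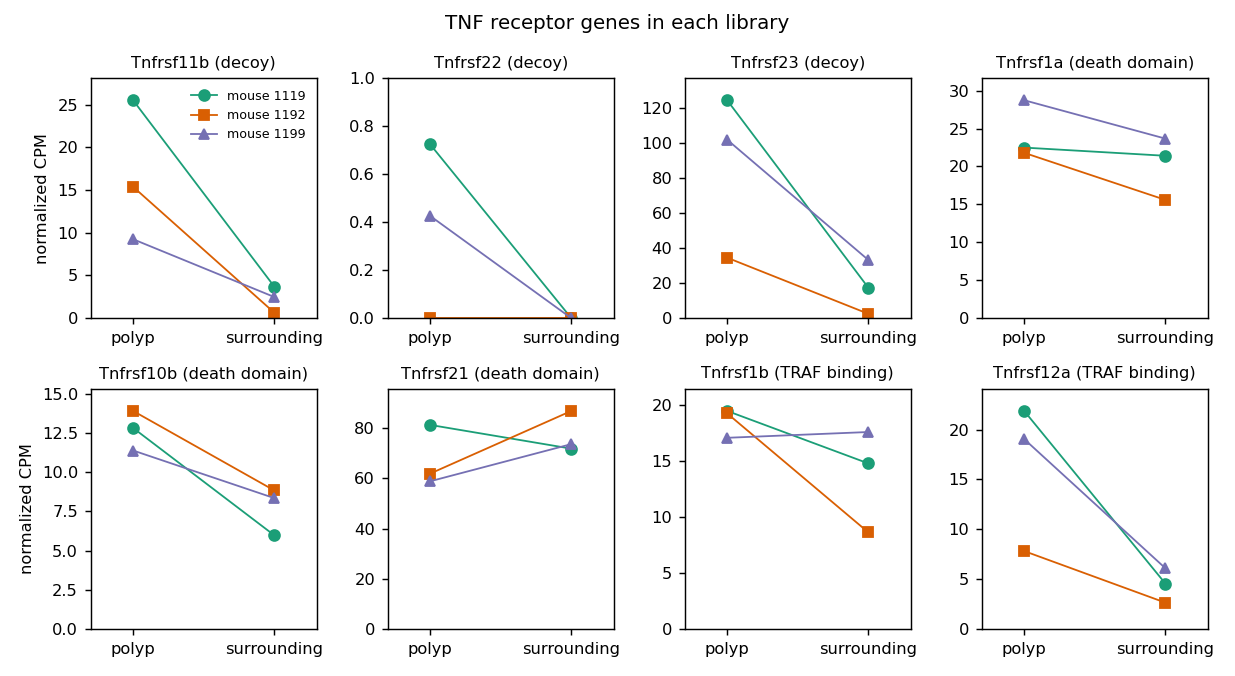
Normalized CPM (y axis, from 0, a separate scale for each gene) of the 8 receptor genes in the polyp and the surrounding tissue of each mouse, with a line joining the samples of 1 animal. Tnfrsf11b, Tnfrsf23, Tnfrsf10b and Tnfrsf12a had every polyp above every surrounding sample, and Tnfrsf22 reached 0.725 CPM at most.

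The TRAF-binding receptor Tnfrsf12a (ENSMUSG00000023905), also called Fn14, is the receptor for TWEAK and is known to be induced in injured tissue. It had 21.9, 7.81 and 19.1 CPM in polyps of mice 1119, 1192 and 1199, against 4.55, 2.63 and 6.09 CPM in surrounding tissue. The tissues did not overlap, and mouse 1192 was again lowest in both. Its fold change was 3.56 (log2 1.83 ± 0.31), with within-mouse log2 differences of 2.22, 1.50 and 1.61, a narrower range than for either decoy.

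Tnfrsf1b (ENSMUSG00000028599), the receptor TNFR2 found mainly on immune and endothelial cells, had 19.5, 19.2 and 17.1 CPM in the polyps and 14.8, 8.62 and 17.6 CPM in the surrounding tissue. Samples overlapped, and the surrounding tissue of mouse 1192 was the lowest of all. The log2 fold change was 0.51 ± 0.29 with all mice and 0.15 without mouse 1192.

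Of the death domain receptors, Tnfrsf10b (ENSMUSG00000022074), the death-inducing TRAIL receptor of the mouse, had 12.8, 13.9 and 11.4 CPM in polyps, against 5.97, 8.83 and 8.34 CPM in surrounding tissue. All polyps were above all surrounding samples, by a smaller margin than for the decoys (log2 fold change 0.74 ± 0.30). Tnfrsf1a (ENSMUSG00000030341), the main TNF receptor TNFR1, had 22.5, 21.8 and 28.7 CPM in polyps, against 21.4, 15.6 and 23.7 CPM in surrounding tissue. Its samples overlapped, although each polyp exceeded its own surrounding sample (log2 fold change 0.28 ± 0.20). Tnfrsf21 (ENSMUSG00000023915), death receptor 6, had 81.4, 61.9 and 58.9 CPM in polyps, against 71.9, 86.9 and 73.7 CPM in surrounding tissue. It was higher in the polyp of mouse 1119 and lower in the other polyps, with a log2 fold change of -0.21 ± 0.17.

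**Figure D2:**
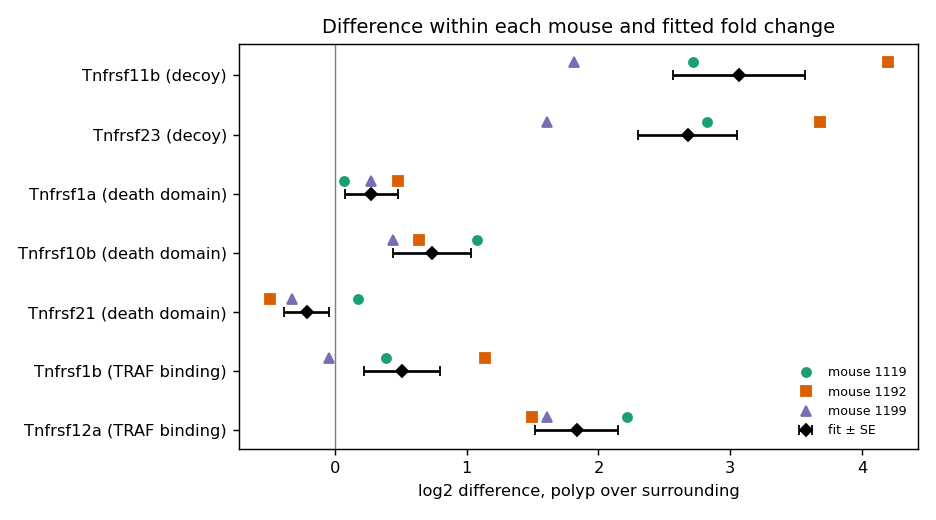
Log2 difference between polyp and surrounding tissue (x axis) for the 7 receptor genes with enough counts, as the value within each mouse (coloured symbols) and the fitted fold change with its standard error (diamonds). Tnfrsf11b and Tnfrsf23 lie farthest to the right, at 3.07 and 2.68, Tnfrsf12a follows at 1.83, and Tnfrsf21 lies at -0.21.

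Of the 7 tested genes, Tnfrsf11b, Tnfrsf23 and Tnfrsf12a, 3 in all, passed the threshold in the comparison of all genes, each higher in polyps, beside 1.72% of all genes (2.76% in either direction). Every polyp lay above every surrounding sample for 4 of the 7, beside 9.84% of all genes, and 5 of the 7 were higher in the polyp of each mouse, beside 19.6%. Nothing is read from these counts, or from the recounts that follow, since the genes were proposed from the same comparison. Without the mouse as a block 0 of the 7 passed, with log2 fold changes of 2.91 for Tnfrsf11b, 2.36 for Tnfrsf23 and 1.91 for Tnfrsf12a. Without mouse 1119, 1192 or 1199 the numbers that passed were 0, 3 and 2. Tnfrsf12a was the gene that no longer passed without mouse 1199. The log2 fold changes without each mouse in turn ran from 2.41 to 3.54 for Tnfrsf11b, from 2.20 to 3.24 for Tnfrsf23 and from 1.60 to 1.94 for Tnfrsf12a.

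As a class, the 2 tested decoys had a median log2 difference of 2.77, 3.94 and 1.71 in mice 1119, 1192 and 1199, against 0.39, 0.64 and 0.28 for the 5 signalling receptors. The decoy median exceeded the signalling median by 2.37 ± 0.93 on the log2 scale (SD, n = 3 mice), and in every mouse. Tnfrsf12a stood apart from the other signalling receptors, since its log2 difference was above 1 in each mouse. A median over 2 genes is their midpoint, and the choice of genes sets this difference, so it describes these receptors only.

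Levels were compared between genes as CPM per kilobase of exon, with lengths from GENCODE M21. Per the labels, RNA was treated with a kit that removes mammalian RNA, so these levels may be of what was left. In polyps Tnfrsf23 averaged 21.9 ± 11.8 CPM per kb (SD, n = 3), Tnfrsf21 16.4 ± 2.97 and Tnfrsf1a 9.39 ± 1.47. Then came Tnfrsf12a at 8.41 ± 3.85, Tnfrsf11b at 5.93 ± 2.91, Tnfrsf1b at 4.87 ± 0.35 and Tnfrsf10b at 2.33 ± 0.23 CPM per kb. In this order Tnfrsf23 and Tnfrsf21 overlapped, and so did each neighbouring pair from Tnfrsf1a down to Tnfrsf1b, while Tnfrsf21 stayed above Tnfrsf1a and Tnfrsf1b above Tnfrsf10b in all polyps.

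In surrounding tissue Tnfrsf21 led at 18.9 ± 2.00 CPM per kb (SD, n = 3), above the range of all other members. Tnfrsf1a followed at 7.80 ± 1.61, Tnfrsf23 at 4.46 ± 3.87, Tnfrsf1b at 3.58 ± 1.20 and Tnfrsf12a at 2.29 ± 0.89 CPM per kb. Tnfrsf10b had 1.41 ± 0.28 and Tnfrsf11b 0.81 ± 0.55 CPM per kb, and from Tnfrsf1a down to Tnfrsf11b the range of each gene overlapped that of the next. Thus Tnfrsf21 had the highest mean in surrounding tissue and Tnfrsf23 in polyps, although in the polyp of mouse 1192 Tnfrsf21 remained above Tnfrsf23.

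Summed per kilobase, the 3 decoys made up 46.2%, 28.7% and 41.0% of the 8 genes' level in the polyps of mice 1119, 1192 and 1199, against 14.7%, 2.57% and 20.3% in the surrounding tissue. Every polyp share was above every surrounding share. Most of the decoy level was that of Tnfrsf23, which averaged 21.9 CPM per kb in polyps, against 5.93 for Tnfrsf11b and 0.091 for Tnfrsf22. The choice of genes sets these shares, so they describe these receptors only. The signalling receptors summed to 47.3, 35.1 and 41.8 CPM per kb in polyps, against 33.1, 32.4 and 36.4 CPM per kb in surrounding tissue. The decoy sums were 40.6, 14.2 and 29.0 CPM per kb in polyps, against 5.69, 0.856 and 9.24 CPM per kb in surrounding tissue.

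**Figure D3:**
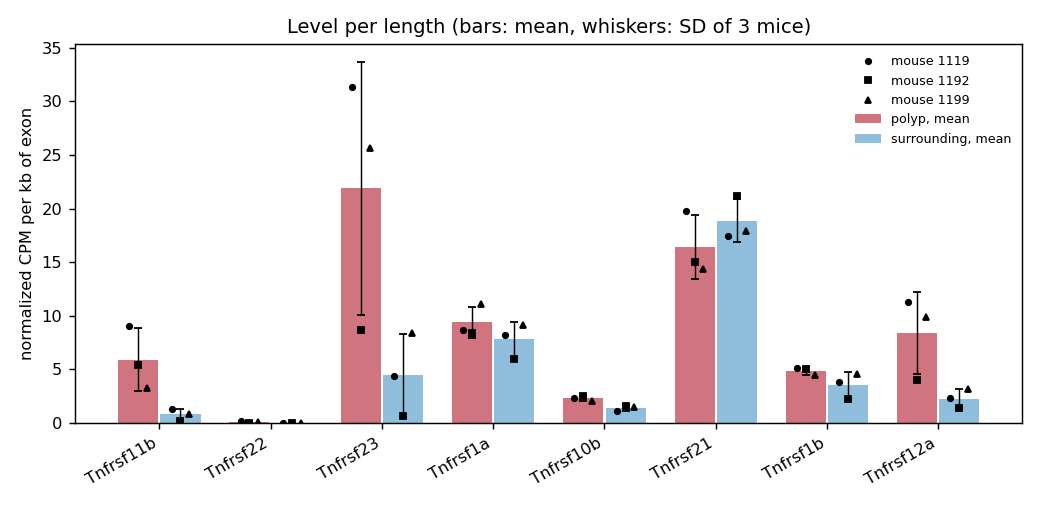
Level per kilobase of exon (y axis, normalized CPM per kb) of the 8 receptor genes in polyps (red) and surrounding tissue (blue), as the mean of 3 mice with its SD and the single samples as symbols. The mean of Tnfrsf21 is 16.4 in polyps and 18.9 in surrounding tissue, while Tnfrsf23 averages 21.9 in polyps and 4.46 in surrounding tissue.

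Markers of other cell types differed between the tissues as well. Of 8 fibroblast markers 4 rose, Col1a1, Col1a2, Col3a1 and Pdgfra, beside 1.72% of all genes. The 8 summed to 213 to 540 CPM in polyps and 66.8 to 149 CPM in surrounding tissue. Of the 6 epithelial markers 3 rose, Krt8, Krt18 and Krt19, beside the same 1.72%. Smooth muscle markers summed to 11.5 to 69.2 CPM in polyps and 158 to 188 CPM in surrounding tissue. Each of the 6 had every polyp below every surrounding sample, as in 8.58% of all genes. Tagln was the 1 of 6 that passed in edgeR, beside 1.04% of all genes lower, while DESeq2 called 4 and limma-voom 2.

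Endothelial markers summed to 14.6 to 42.5 CPM in polyps and 9.26 to 16.3 CPM in surrounding tissue. Macrophage and monocyte markers summed to 36.8 to 59.2 CPM in polyps and 21.6 to 40.6 CPM in surrounding tissue. Most of this was Lyz2 (mean 17.3 against 9.55 CPM) and Cd14 (18.5 against 10.7 CPM). Csf1r and Itgam had log2 fold changes of 0.13 ± 0.48 and 0.14 ± 0.78, and Cd68 averaged 0.332 against 0.703 CPM. Adgre1 had the largest of this list, 2.03 ± 1.58. It rested on 11, 12 and 11 counts in polyps of mice 1119, 1192 and 1199, against 0, 17 and 1 in surrounding tissue. Neutrophil markers summed to 17.3 to 52.1 CPM in polyps and 1.07 to 18.0 CPM in surrounding tissue. In polyps most of this was Ly6g. It had 34.3, 16.0 and 24.7 CPM in polyps of mice 1119, 1192 and 1199, against 7.48, 0.142 and 13.7 CPM. S100a8 was higher in the polyps of mice 1119 and 1199, and Csf3r in those of mice 1119 and 1192. S100a9 and Cxcr2 were higher in the polyp of mouse 1119 only. Mpo had 0 counts in all polyps, and 7, 0 and 0 counts in surrounding tissue. T cell markers stayed at 0.725 to 3.41 CPM in polyps and 2.56 to 9.69 CPM in surrounding tissue, near the detection limit. B and plasma cell markers summed to 7.86 to 15.1 CPM in polyps and 14.6 to 16.9 CPM in surrounding tissue. In edgeR 0 of 5 tested endothelial, 0 of 5 macrophage and 0 of 3 neutrophil markers passed, beside 2.76% of all genes. For T cell and for B cell markers it was 0 of 1. In this order, 3, 2, 0, 0 and 0 were at an unadjusted p under 0.05. The share of all genes at that level is not given here, so nothing is read from such counts, here or in the lists below. DESeq2 and limma-voom called 0 of these markers too, except for 1 neutrophil marker in DESeq2. No marker on these lists was at 0 in all 6 libraries. The part of these cell types in the receptor differences was not tested.

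For each receptor that passed, the 3 genes with the most similar profile were found by the root mean square distance between log2 CPM profiles, each centred on its own mean, over 6 libraries and 5813 candidate genes. Nearest to Tnfrsf12a were the laminin gene Lamb1 (distance 0.18), the secreted binding protein gene Igfbp7 (0.20) and the collagen gene Col1a2 (0.21). Nearest to Tnfrsf23 were the acyl-CoA synthetase gene Acsbg1 (0.24), the sphingosine-1-phosphate transporter gene Spns2 (0.27) and the arginase gene Arg1 (0.30).

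Tnfrsf11b had no match as close. Its nearest genes were the follistatin-like gene Fstl1 (0.55), the receptor kinase gene Ret (0.57) and the oxidase maturation factor gene Duoxa2 (0.66). The 6 libraries come from 3 mice, share the same normalization and are split by tissue, so any gene with a like polyp difference scores close.

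Of 18 ligand genes of the superfamily, 17 had a row in the same libraries. None of the 6 tested ligand genes passed in edgeR (0 higher, 0 lower, 2 at an unadjusted p under 0.05), beside 2.76% of all genes. TRAIL itself was lower in polyps without passing. Tnfsf10 had 5.92, 9.62 and 5.26 CPM in polyps of mice 1119, 1192 and 1199, against 19.2, 16.5 and 14.2 CPM in surrounding tissue. All polyps lay below all surrounding samples, as in 8.58% of all genes (log2 fold change -1.29 ± 0.30, edgeR adjusted p = 0.0708). It passed in 5 of 12 alternative settings, with adjusted p from 0.00456 to 0.347 over all of them, DESeq2 (adjusted p = 0.0314) and limma-voom (adjusted p = 0.0467) among those that passed.

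Set beside its receptors, the values for TRAIL were lower in polyps, those for the decoys Tnfrsf23 and Tnfrsf11b higher, and that for the death receptor Tnfrsf10b slightly higher. Tnf, the ligand of Tnfrsf1a and Tnfrsf1b, had 3.87, 4.03 and 4.27 CPM in polyps, against 4.07, 1.78 and 2.70 CPM in surrounding tissue (log2 fold change 0.58 ± 0.54, edgeR adjusted p = 0.698). Tnfsf15, a ligand known from endothelial and myeloid cells, had 5.08, 13.9 and 5.40 CPM in polyps, against 4.83, 3.20 and 2.48 CPM in surrounding tissue (log2 fold change 1.12 ± 0.49, edgeR adjusted p = 0.338). RANKL was too low to test, with 7, 15 and 2 counts of Tnfsf11 in polyps, against 0, 15 and 0 counts in surrounding tissue. The GENCODE M21 identifier of Tnfsf12, which encodes TWEAK, was not among the 37991 gene identifiers, so this ligand was not analysed. Lta, Cd40lg, Cd70 and Tnfsf14 had 0 counts in all 6 libraries.

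Over the 6 tested ligands the median log2 fold change was 0.59, with 4 positive and 2 negative, beside a median of -0.02 and 48.4% positive values over all 10960 genes. Of the 20 other receptor genes of the superfamily, 4 had enough counts to be tested. Of these 4, 0 passed in edgeR, in DESeq2 or in limma-voom (1 at an unadjusted p under 0.05), beside 2.76% of all genes in edgeR. Their median log2 fold change was -0.75.

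Tnfrsf11a, which encodes RANK, the signalling receptor for RANKL, had 33.0, 48.6 and 23.5 CPM in polyps, against 45.4, 63.7 and 33.8 CPM in surrounding tissue. The tissues overlapped, yet each polyp was below its own surrounding sample (log2 fold change -0.46 ± 0.16, edgeR adjusted p = 0.217). Tnfrsf14, the receptor HVEM, averaged 0.607 ± 0.529 CPM in polyps and 2.26 ± 0.69 CPM in surrounding tissue (SD, n = 3). Its log2 fold change was -2.38 ± 1.23 (edgeR adjusted p = 0.446). The polyps of mice 1119, 1192 and 1199 rested on 8, 0 and 6 counts, near the detection limit. Fas and Ltbr, the other tested receptors, had log2 fold changes of -1.05 ± 0.70 and 0.28 ± 0.20. Tnfrsf26, the family neighbour of the TRAIL decoys on chromosome 7, had 11, 24 and 0 counts in polyps, against 5, 7 and 0 in surrounding tissue, too few to test.

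Downstream of the receptors, 0 of 18 tested adaptors, kinases and ubiquitin enzymes passed in edgeR, DESeq2 or limma-voom. The share of all genes in edgeR was 2.76%. The median log2 fold change of the 18 was 0.10, with 10 positive and 8 negative, and 4 were at an unadjusted p under 0.05. The smallest p belonged to Traf4, a TRAF adaptor, at 16.5 ± 1.88 CPM in polyps and 10.8 ± 2.87 CPM in surrounding tissue (SD, n = 3; log2 fold change 0.64 ± 0.26, edgeR adjusted p = 0.296). Next came Birc3, an inhibitor of apoptosis that binds TRAF2, at 25.7 ± 2.09 CPM in polyps and 18.2 ± 4.68 CPM in surrounding tissue (log2 fold change 0.53 ± 0.22, edgeR adjusted p = 0.311). The other 2 were lower in polyps at nearly the same p. Fadd, the adaptor of death receptors, averaged 3.72 ± 1.77 CPM in polyps and 6.93 ± 1.41 CPM in surrounding tissue (SD, n = 3; log2 fold change -0.98 ± 0.41, edgeR adjusted p = 0.321). Birc2, another inhibitor of apoptosis, averaged 9.75 ± 1.58 CPM in polyps and 15.1 ± 0.74 CPM in surrounding tissue (SD, n = 3; log2 fold change -0.64 ± 0.27, edgeR adjusted p = 0.326).

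Of 23 listed genes for NF-kappaB subunits, inhibitors, kinases and targets, 18 had enough counts to be tested. Those with too few included the targets Tnfaip2, Ccl2, Cxcl1 and Il6. Tnfaip2 had 9, 67 and 25 counts in polyps of mice 1119, 1192 and 1199, against 0, 10 and 3 in surrounding tissue. In the same order, Cxcl1 had 31, 0 and 13 counts against 7, 0 and 4. Ccl2 had 5, 0 and 1 against 0, 0 and 0, and Il6 4, 0 and 0 against 0, 0 and 2. Of the 18 tested genes, 0 passed in edgeR, DESeq2 or limma-voom, beside 2.76% of all genes in edgeR. At an unadjusted p under 0.05 there was 1. The median log2 fold change was 0.20, with 11 positive and 7 negative. Cxcl2, a neutrophil-attracting chemokine, averaged 4.20 ± 4.66 CPM in polyps and 0.711 ± 0.637 CPM in surrounding tissue (SD, n = 3). Its log2 fold change was 2.75 ± 1.14 (edgeR adjusted p = 0.311). Icam1, an adhesion molecule, averaged 2.19 ± 1.47 CPM in polyps and 0.265 ± 0.286 CPM in surrounding tissue (log2 fold change 3.21 ± 1.51, edgeR adjusted p = 0.385). Its surrounding samples of mice 1119, 1192 and 1199 rested on 6, 0 and 1 counts. Tnfaip3 and Nfkbia, the feedback inhibitors A20 and IkappaB-alpha, were at 0.47 ± 0.24 and 0.23 ± 0.28 on the log2 scale.

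Of 18 tested caspase, apoptosis and necroptosis genes, 0 passed in edgeR and DESeq2 and 2 in limma-voom, beside 2.76% of all genes in edgeR. In edgeR 6 had an unadjusted p under 0.05. The median log2 fold change was 0.08, with 10 positive and 8 negative. The 2 genes that passed in limma-voom were Cflar and Ripk3. Cflar, the inhibitor FLIP that blocks caspase-8 at death receptors, had 102.8, 92.0 and 109 CPM in polyps, against 59.6, 60.3 and 86.8 CPM in surrounding tissue, without overlap (log2 fold change 0.58 ± 0.15, edgeR adjusted p = 0.102). Ripk3, the kinase of necroptosis, had 21.6, 33.6 and 33.4 CPM in polyps, against 12.6, 14.2 and 24.8 CPM in surrounding tissue (log2 fold change 0.83 ± 0.23, edgeR adjusted p = 0.111). Casp8, an initiator caspase, had a log2 fold change of 0.40 ± 0.22.

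**Figure D4:**
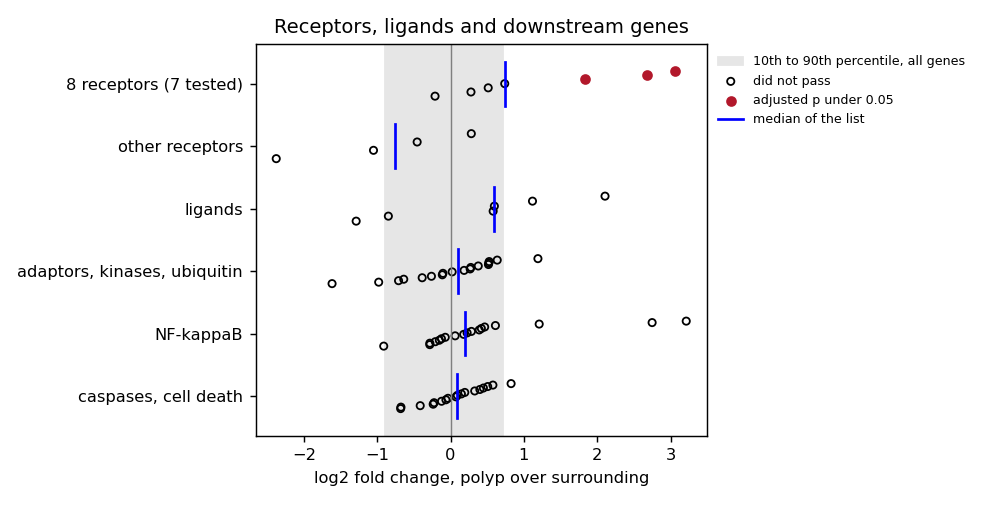
Log2 fold change of polyps over surrounding tissue (x axis) for the tested receptor genes and 5 lists of superfamily and downstream genes, with filled points for adjusted p under 0.05, blue lines for list medians and grey for the central range of all genes (10th to 90th percentile, -0.89 to 0.72). The filled points are Tnfrsf12a, Tnfrsf23 and Tnfrsf11b, which were chosen with this comparison known, and the list medians lie between -0.75 and 0.74.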

How the data were processed

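RNA sequencing counts of 6 cecum samples from 3 HBUS mice were used. Each sample has a deposited table of raw read counts by gene, per the file headers. The submitters' processing notes list TopHat2 2.0.7 and Bowtie 0.12.9, and also HTSeq 0.5.3p9; settings, strand use, genome build and read length: not given in the sources used here. Per the labels' protocols, RNA was treated with a kit that removes mammalian RNA and with a bacterial rRNA removal kit, so the mouse counts may cover what was left after this step. Gene names came from GENCODE M21, which named 32919 of 37991 identifiers.

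The test of all genes used edgeR 4.0.16 in R 4.3.3: quasi-likelihood test, two-sided, robust spread, TMM normalization, filterByExpr with a minimum count of 10, and the mouse as a block, with Benjamini-Hochberg adjustment over 10960 genes. The series is described as paired, and each title carries the mouse number. Deviations from the tissue means correlated at 0.0719, 0.127 and 0.159 within mice 1119, 1192 and 1199 and at -0.1199 to -0.00294 between mice. Standard errors were derived from the edgeR statistic, and 2 residual degrees of freedom were available per gene. Differences within a mouse used log2 CPM with a prior count of 2. Samples of the same tissue were not copies of each other (chi-square divided by its degrees of freedom, 19.6 to 68.6). The procedure was also run on simulated counts, which held no mouse effect, so the mouse block was not tested by them.

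The receptors and gene lists were chosen with earlier results of these data known. Named were all 8 receptors, 5 partner genes, the 2 smallest p-values of each list with none called, and the 3 genes nearest in profile to each receptor that passed. Genes named outside this rule (Fadd, Birc2, Tnfrsf26, Fas, Ltbr, Tnfaip3, Nfkbia, Casp8, untested NF-kappaB targets, the ligands at 0 counts and the single markers named) and the 4 motif strings were chosen after values or sequences were seen. Alternatives were no block, upper-quartile or RLE normalization, genes above 1% of a library removed, no filter, a mean of at least 5 CPM, non-robust spread, DESeq2 1.42.0, limma-voom (limma 3.58.1) and leaving out each mouse. Python 3.11.15 was used for sequences and figures.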

Additional observations from a re-analysis of the deposited data

How the results depend on the processing

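The signs of the log2 fold changes of all 7 tested receptor genes were the same in all 12 alternatives. The decoy minus signalling difference was 1.90 to 2.86 with a mouse left out. Its SD comes from the same 3 mice, so leaving 1 out cannot move it by 1 SD. It was 2.37 with RLE or upper-quartile normalization and with genes above 1% removed, where the library factor nearly cancels between the classes. Nothing is read from these values. Without the replicate block the calls over all genes were 87 (51 higher, 36 lower), and 0 receptor genes passed; the pairing rests on the animal. The other counts were 753 (442 and 311) without a filter, 541 (326 and 215) with DESeq2 and 487 (299 and 188) with limma-voom, and 177 genes were lower with a mean of at least 5 CPM. With a mouse left out they ran from 83 to 281, with 45 to 153 higher and 21 to 128 lower, and 0 to 3 receptor genes passed. The lowest total, 83, was without mouse 1119, and it was 100 without mouse 1199. In the ligand list 1 gene, Tnfsf10, passed without a filter, with a mean of at least 5 CPM, with DESeq2, with limma-voom and without mouse 1192 (0 to 1 with a mouse left out). In the cell death list 2 genes, Cflar and Ripk3, passed without a filter and with limma-voom. The cause of these changes was not tested. Tnfrsf22, Tnfsf11 and 16 of the 20 other receptor genes had too few counts to test at this depth.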
